A study of Mus musculus with 13 samples.

Results

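Collagens are the main structural proteins of the extracellular matrix. Their chains were followed in visceral fat and in transplanted E0771 mammary tumours of host mice with a fat-specific knockout of PD-L1 (KO) and of wild-type hosts (WT). The chains were taken as every gene whose symbol is Col, a number, the letter a and a number, which gave 43 of 22609 genes in each table, with 11 chains of fibrillar collagens, 6 of the type IV basement membrane collagen and 26 of other types. All libraries came from C57BL/6 mice. The 4 KO and 3 WT fat libraries were labelled as visceral fat after HFD (high-fat diet) feeding, and the 3 KO and 3 WT tumour libraries as transplanted E0771 tumours, a mouse mammary cancer cell line, named by the genotype of the host. The labels do not name the promoter that drives the deletion, and they do not say whether each library is a separate animal, so the p-values speak of spread among libraries, which may be technical.

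A collagen molecule is a triple helix of chains, either of 1 gene or of several. Fibrillar collagens such as types I, III and V assemble into the tensile fibres of connective tissue, and type IV forms the network of basement membranes, which in fat surrounds every adipocyte and every capillary. Type VI forms beaded filaments close to cells and is abundant in fat. Fibril-associated collagens sit on the surface of fibrils, and types XV and XVIII are proteoglycans of basement membrane zones. In solid tumours most fibrillar collagen is usually made by stromal fibroblasts.

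Gene reads ranged over 29362788 to 41534662 in the fat libraries and 22834259 to 34706555 in the tumour libraries. Cd274, which encodes PD-L1, averaged 544 ± 17.6 normalised reads in KO fat and 590.2 ± 129 in WT fat (SD, n = 4 and 3; limma adjusted p = 0.660), and 2043 ± 432 in tumours of KO hosts and 1584 ± 167 in tumours of WT hosts (SD, n = 3 each; edgeR adjusted p = 0.717). Whole-tissue Cd274 therefore gave no check of the genotype labels, and KO and WT below mean the libraries so labelled. Among WT fat columns, which carry the numbers 1, 3 and 4 in the deposited table, the epididymis gene Adam7 stood at 1918 normalised reads in the column numbered 4, against at most 2.02 in every other fat library. Sperm genes summed to between 0 and 4.54 normalised reads in KO fat and between 46.4 and 682 in WT fat.

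Collagen made up overlapping parts of the gene reads in KO and WT fat, but the classes were divided differently. In KO fat 2.08% to 2.97% of gene reads fell on collagen chains, and in WT fat 1.55% to 3.05%. Fibrillar chains held 60.3%, 62.5%, 47.7% and 56.3% of the collagen reads in KO fat, against 41.6%, 38.6% and 39.3% in WT fat. Every KO library lay above every WT library. Type IV chains held 16.6%, 16.0%, 23.5% and 18.7% in KO fat and 27.0%, 30.6% and 30.6% in WT fat, with the groups apart in the other direction. As parts of a whole, these shares move against each other. Taken as parts of all gene reads, both classes overlapped between KO and WT fat. Type IV chains then held 0.345% to 0.624% in KO fat and 0.474% to 0.823% in WT fat. Collagen was a smaller part of the gene reads in tumours, with 0.831% to 1.05% of gene reads in KO hosts, against 0.962% to 1.17% in WT hosts. The 6 type VI chains alone held 36.7% to 39.5% of the collagen reads in tumours of KO hosts and 38.0% to 39.8% in tumours of WT hosts.

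**Figure D1:**
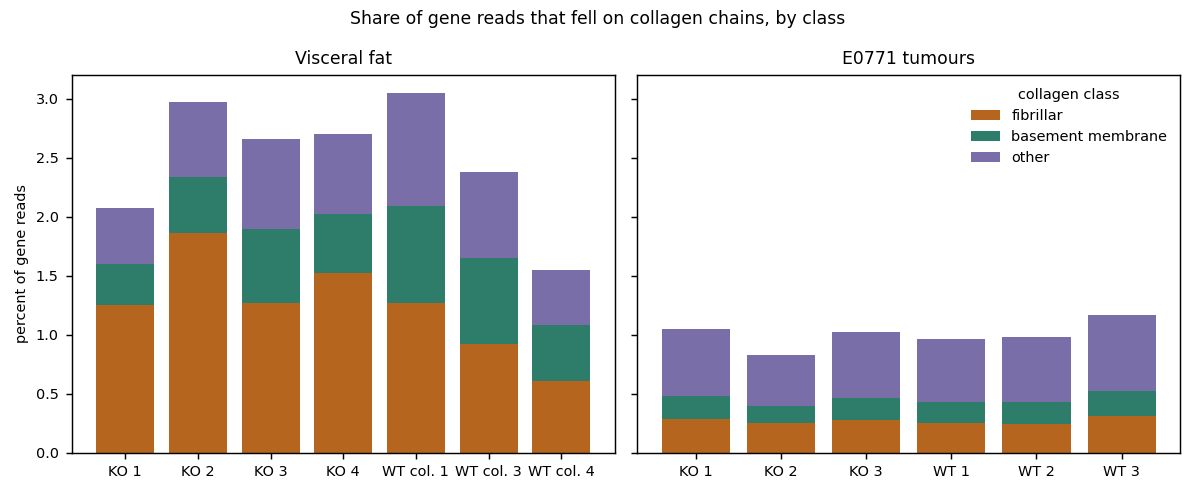
Percent of gene reads that fell on collagen chains in each library, stacked by class, in visceral fat (left) and E0771 tumours (right), with no error bars because each bar is 1 library. The fibrillar part was 1.25% to 1.86% of gene reads in KO fat and 0.609% to 1.27% in WT fat, so the groups overlapped. In tumours it lay between 0.245% and 0.311%.

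Genes are placed below by GENCODE M21 on GRCm38, and levels were set beside each other per kilobase of annotated exon, since longer genes collect more reads. The length counts every annotated exon of a gene, 12426 bases for Col1a2 and 6563 for Col1a1, so the order is rough. In fat Col3a1, the single chain of type III collagen, was highest, with a mean of 26811 normalised reads per kilobase in KO fat and 15708 in WT fat. The type IV chain gene Col4a1 came next, with 12563 reads per kilobase in KO fat and 18541 in WT fat, and was the highest collagen in the WT group. Among the chains tested in fat, Col17a1, a transmembrane collagen of epithelial attachment, was lowest by the mean of both groups, with 1.92 reads per kilobase in KO fat and 3.52 in WT fat. In the tumours the order was different. Col6a1 led with 11258 reads per kilobase in KO hosts and 12767 in WT hosts, followed by Col5a3 with 6694 in KO hosts and 6170.1 in WT hosts. Col1a2, 8th of 43 in fat by the mean of both groups, was 13th in the tumours, with 95 reads per kilobase in KO hosts and 42.9 in WT hosts. Of the chains tested in the tumours Col23a1 was lowest by the mean of both groups, with 1.89 in KO hosts and 1.44 in WT hosts.

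**Figure D2:**
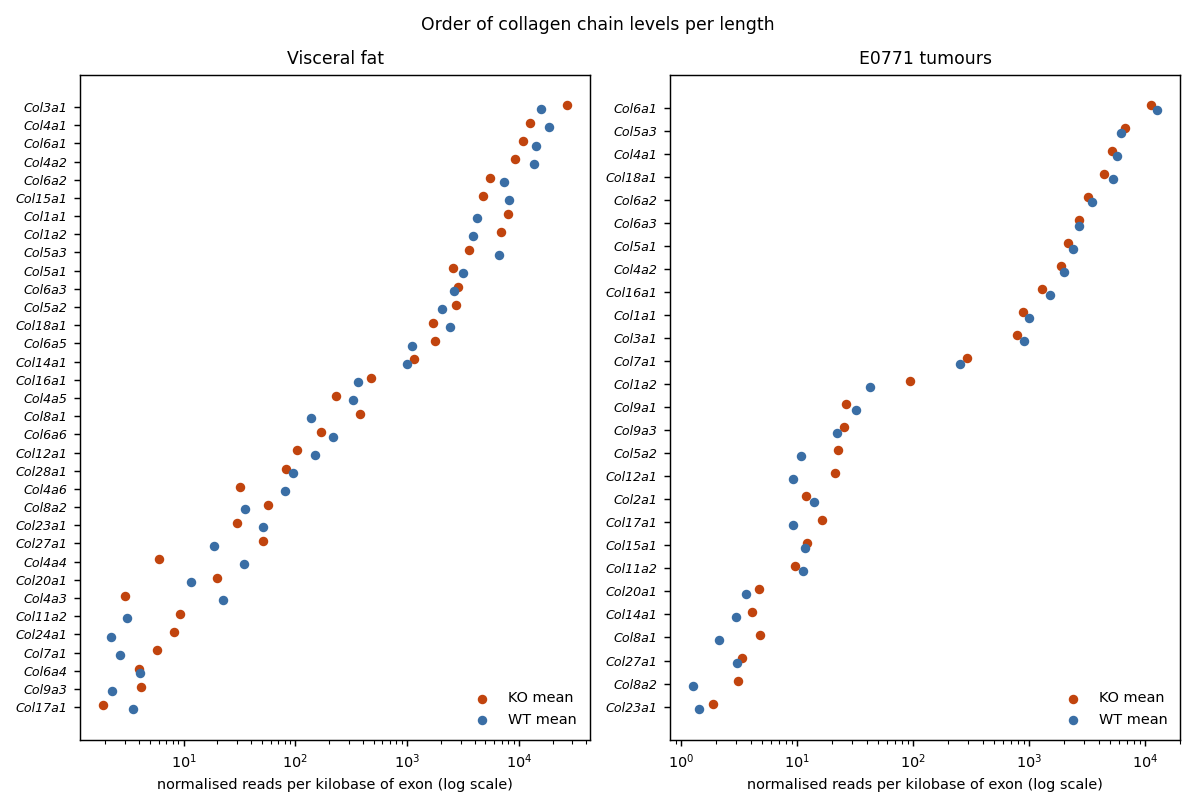
Mean level of each tested chain in normalised reads per kilobase of exon, on a log axis, in visceral fat (left) and E0771 tumours (right), ordered by the mean of both groups. Points are group means without error bars. Col3a1 led in fat and Col6a1 in tumours, and most chains had KO and WT points close to each other in the tumours.

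In fat 34 of the 43 chains passed the filter on low values. Of these, 4 rose in KO fat, 4 fell and 26 did not pass the limma test at an adjusted p of 0.05, so 23.5% were called, against 34.2% of all 14455 genes tested (16.8% higher and 17.4% lower in KO). Before adjustment, 8 chains were higher and 5 lower with p under 0.05, against 22.3% and 23.1% of all genes (45.4% together). The share of chains called lay below the share of all genes, and no test of that gap was made. The median log2 fold change was -0.14 over the 34 chains and 0.88, -0.83 and -0.03 over the fibrillar, type IV and other chains, beside a median of -0.00 over all genes. DESeq2 on the recovered reads called 8 chains higher and 5 lower, adding Col1a1, Col1a2, Col3a1 and Col7a1 on the higher side and Col4a6 on the lower. The limma counts were 9 higher and 5 lower without the WT column numbered 1, and 7 higher and 5 lower without the WT column numbered 4. In 9 of the 34 chains KO and WT libraries did not overlap (5 with all KO libraries above, 4 with all below), while 43.7% of all genes tested were apart in this way (21.6% above and 22.1% below). In bulk tissue, fewer cells of a type and less RNA per cell cannot be told apart.

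**Figure D3:**
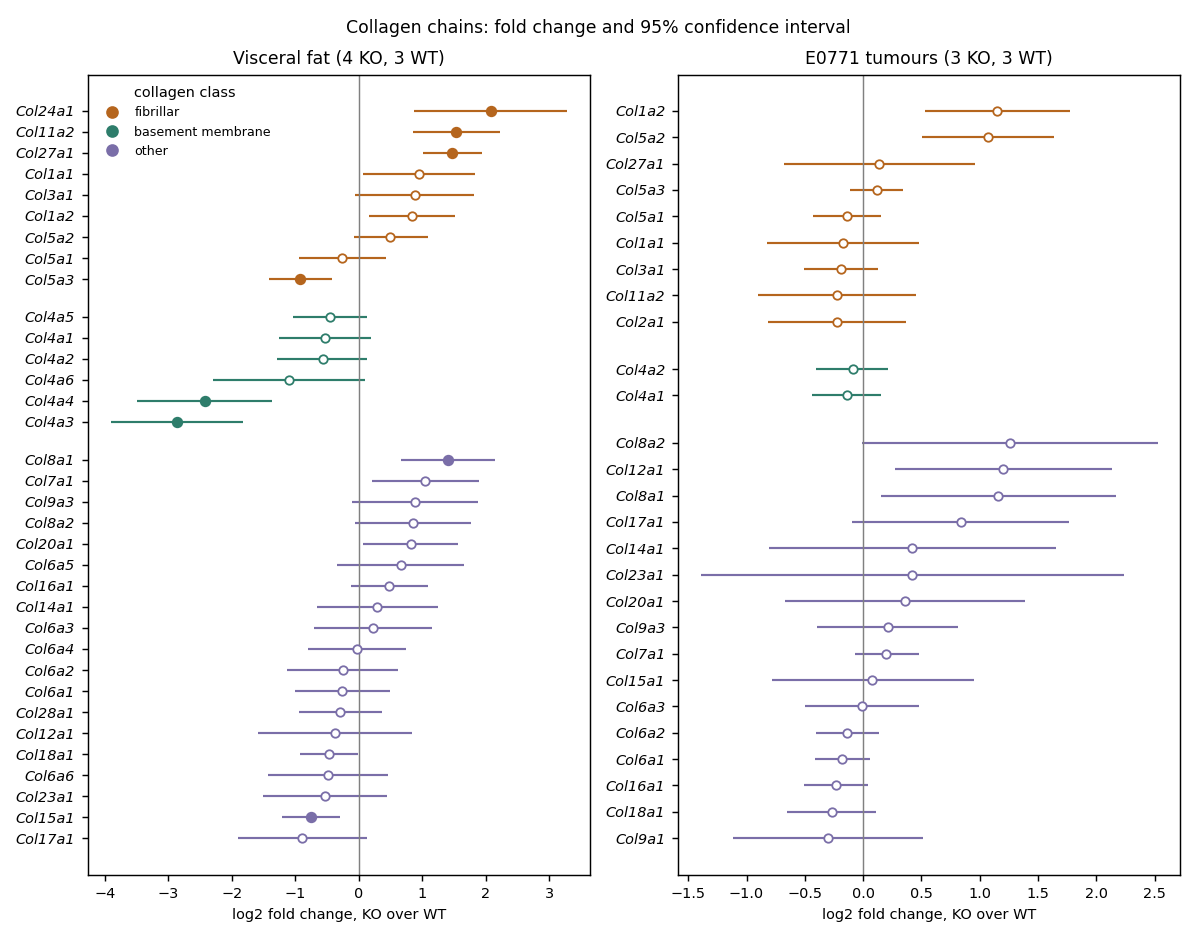
Log2 fold change, KO over WT, with its 95% confidence interval for each tested chain in visceral fat (left, 4 KO and 3 WT libraries) and E0771 tumours (right, 3 and 3), grouped by class. Filled points passed the adjusted test: Col24a1, Col11a2, Col27a1 and Col8a1 rose in KO fat, Col4a3, Col4a4, Col5a3 and Col15a1 fell, and no point is filled in the tumours.

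Among the 9 fibrillar chains tested in fat, 3 rose and 1 fell (44.4% called), beside 16.8% of all genes higher and 17.4% lower (34.2% together). All 3 that rose encode minor chains. Col27a1 (chr4:63214004-63334991), a fibrillar collagen best known from cartilage, had 554, 663, 774 and 692 normalised reads in the KO libraries, against 327, 213 and 197 in the WT libraries. It rose 2.78-fold (95% confidence interval 2.01 to 3.84; limma adjusted p = 0.00181), and its lowest KO library stood well above its highest WT library. Col11a2 (chr17:34039437-34066685), a chain of type XI collagen that is also known from cartilage, had 49.7, 86.3, 65.4 and 55.4 reads in KO fat and 24.9, 15.7 and 23.7 in WT fat. It rose 2.90-fold (interval 1.80 to 4.67; adjusted p = 0.00605), again with no overlap, at low counts. Of the cartilage and bone markers only Comp passed the filter, at 52.9 to 556 reads in KO fat and 42.2 to 96.9 in WT fat (adjusted p = 0.103), and Bglap was at 0 in every library. The part of such cells in the difference was not tested. Col24a1 (chr3:145292472-145552011), a fibrillar chain related to Col27a1, had 45.3, 78.8, 55.4 and 73.6 reads in KO fat and 31.0, 15.7 and 5.16 in WT fat. The rise of 4.23-fold had a wide interval (1.83 to 9.77; adjusted p = 0.0174) and was lost without KO replicate 2 (adjusted p = 0.0512). Only 2 of the 3 WT libraries reached 10 reads for Col24a1, so it entered the test through the KO group.

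The abundant chains of types I and III had ratios above 1 but did not pass the test. Col1a1 and Col1a2 encode the chains of type I collagen, the most abundant collagen of connective tissue. Col1a1 had 34413, 82487, 39083 and 54499 normalised reads in KO fat and 39964, 26958 and 15832 in WT fat, so that the groups overlapped through 1 WT library. The ratio was 1.93-fold (interval 1.05 to 3.55; adjusted p = 0.0905). Col1a2 had 70421, 118612, 67827 and 85096 reads in KO fat and 64174, 44919 and 34653 in WT fat. Every KO library was above every WT library, yet the 1.80-fold difference had an adjusted p of 0.0564 by limma. Col3a1 had 243101, 327474, 214536 and 267606 reads in KO fat, against 233556, 145724 and 83279 in WT fat, a 1.84-fold difference (interval 0.957 to 3.53; adjusted p = 0.132). For these 3 chains the WT column numbered 1 was the highest WT library, and without it all 3 passed the limma test (adjusted p = 0.0377 for Col1a1, 0.0240 for Col1a2 and 0.0343 for Col3a1). None of them passed when any other single library was left out. Without the WT column numbered 3 or the one numbered 4, none had an unadjusted limma p under 0.05. Over all leave-outs the log2 fold change was 0.6 to 1.26 for Col1a1, 0.63 to 1.08 for Col1a2 and 0.5 to 1.24 for Col3a1. The column numbered 1 was the highest WT library for all 9 tested fibrillar chains, and the column numbered 4 the lowest for 8 of them.

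Type V collagen is a regulator of fibril diameter that sits inside type I fibrils, and of its 3 chains only Col5a3 passed the test. Col5a3 (chr9:20770050-20815067), the chain with the most restricted tissue range, had 17363, 23158, 30588 and 25297 reads in KO fat and 51457, 42976 and 40272 in WT fat. It fell, at 0.529 times the WT level (interval 0.374 to 0.747; adjusted p = 0.0132), with no overlap between groups. Col5a2 averaged 26432 ± 1997 reads in KO fat and 19629 ± 7481 in WT fat (SD, n = 4 and 3), a ratio of 1.42 with an adjusted p of 0.159. Col5a1 averaged 21608 ± 4963 reads in KO fat and 26546 ± 9732 in WT fat, a ratio of 0.834 with an adjusted p of 0.526. The KO libraries of Col5a2 stayed within a factor of 1.183 of each other, the narrowest range of any tested chain in KO fat.

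**Figure D4:**
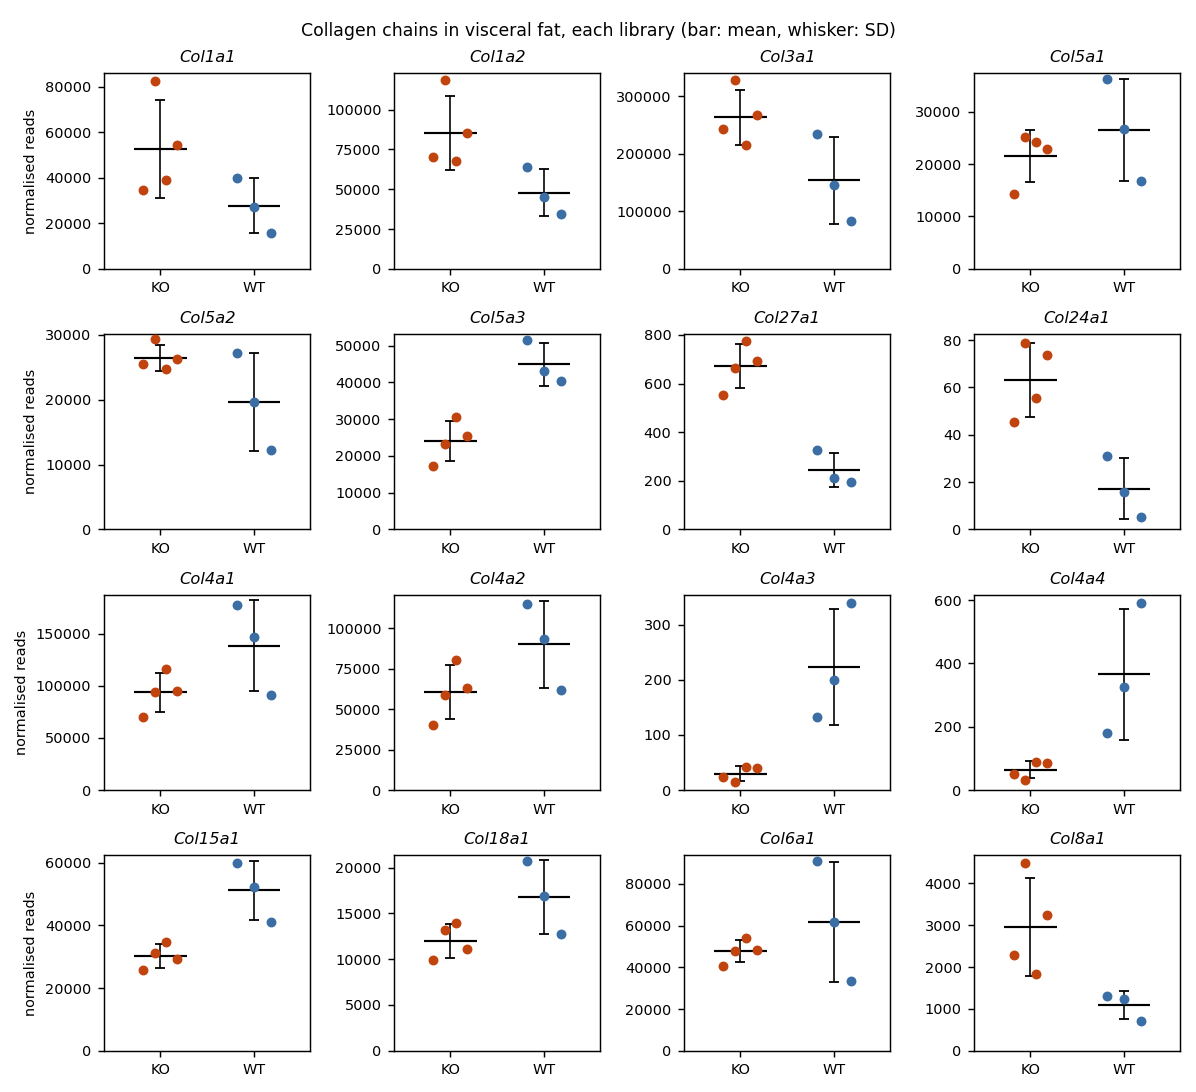
Normalised reads of 16 chains in each visceral fat library, KO left of WT, with the group mean as a bar and the SD as a whisker (n = 4 and 3). Col27a1, Col24a1 and Col8a1 had every KO point above every WT point, Col5a3, Col4a3, Col4a4 and Col15a1 every KO point below, and the WT points of Col3a1 spread from 83279 to 233556.

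All 6 type IV chains had a level in KO fat below that in WT fat, beside a median log2 fold change of -0.00 over all genes. Of the 6 chains 2 passed the test, beside 17.4% of all genes called lower. The 6 were read in the same libraries, so their directions are not independent of each other. The 6 genes lie in head-to-head pairs. Col4a1 and Col4a2 encode the chains of the network found in nearly all basement membranes, and their annotated start sites lie 21 bases apart on opposite strands of chromosome 8, so that their 5′ ends overlap. The windows from 250 bases before to 50 bases after each start are shown because the results below set these 2 genes side by side (RefSeq, GRCm38.p6). Capitals mark GC boxes (GGGCGG or its complement CCGCCC) and CCAAT boxes (CCAAT or its complement ATTGG).
Col4a1, chr8:11312777-11313076, minus strand: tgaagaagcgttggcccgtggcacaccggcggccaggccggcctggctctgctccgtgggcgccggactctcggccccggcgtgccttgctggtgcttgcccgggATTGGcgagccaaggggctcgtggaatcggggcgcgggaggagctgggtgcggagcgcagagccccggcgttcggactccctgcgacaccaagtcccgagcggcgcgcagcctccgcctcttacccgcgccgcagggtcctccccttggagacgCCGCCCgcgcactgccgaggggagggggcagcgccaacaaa
Col4a2, chr8:11312555-11312854, plus strand: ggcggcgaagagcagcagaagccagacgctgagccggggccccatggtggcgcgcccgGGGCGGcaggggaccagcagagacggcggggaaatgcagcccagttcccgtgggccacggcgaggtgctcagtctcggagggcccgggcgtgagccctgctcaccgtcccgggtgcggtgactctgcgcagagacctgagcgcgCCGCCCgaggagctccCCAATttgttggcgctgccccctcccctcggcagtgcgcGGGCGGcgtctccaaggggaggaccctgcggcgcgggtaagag
Both strands were searched. The Col4a1 window held 1 GC box and 1 CCAAT box and the Col4a2 window 3 GC boxes and 1 CCAAT box, and neither held TATAAA. Over all 32851 windows of this length, 35.7% held a GC box, 37.4% a CCAAT box and 13.6% TATAAA. The windows share 78 bases, so a box there is counted in both. Exons of the pair overlap over 0.29% of the exon bases of Col4a1, where reads could not be told apart without strand.

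Reads of this pair went up and down together across the fat libraries. Col4a1 had 70296, 94383, 115679 and 94731 normalised reads in KO fat and 177138, 146639 and 91393 in WT fat. Col4a2 had 40222, 58867, 80164 and 62768 reads in KO fat and 115016, 93374 and 61790.0 in WT fat. In both genes KO replicate 3 was the highest KO library, and the WT column numbered 4 was below it. The ratios of 0.692 (interval 0.420 to 1.14) for Col4a1 and 0.674 (interval 0.411 to 1.10) for Col4a2 did not pass the limma test (adjusted p = 0.222 and 0.188). The number of Col4a1 reads per Col4a2 read was 1.44 to 1.75 in KO fat and 1.48 to 1.57 in WT fat.

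Col4a3 and Col4a4 encode chains of the network best known from the kidney filter, and both fell in KO fat. They also start head to head, 72 bases apart on chromosome 1 in GENCODE (Col4a3, chr1:82586921-82722059, and Col4a4, chr1:82448423-82586849). The Col4a4 window is shown because it contains the start of Col4a3, and here the capitals mark the bases that belong to the Col4a3 gene span.
Col4a4, chr1:82586800-82587099, minus strand: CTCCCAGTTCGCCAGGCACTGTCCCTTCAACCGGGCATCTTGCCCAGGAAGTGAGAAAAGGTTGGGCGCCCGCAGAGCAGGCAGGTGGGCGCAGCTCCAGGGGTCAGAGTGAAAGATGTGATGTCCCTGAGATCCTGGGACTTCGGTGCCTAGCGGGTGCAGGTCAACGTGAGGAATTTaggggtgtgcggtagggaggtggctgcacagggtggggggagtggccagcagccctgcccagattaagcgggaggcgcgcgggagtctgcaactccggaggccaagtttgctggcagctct
No GC box, CCAAT box or TATAAA was found in that window. Col4a3 had 23.2, 14.0, 42.7 and 40.3 normalised reads in KO fat and 132, 199.6 and 338 in WT fat, at 0.137 times the WT level (interval 0.0664 to 0.281; adjusted p = 0.00270). Col4a4 had 49.7, 33.4, 89.9 and 85.7 reads in KO fat and 179.8, 326 and 589.8 in WT fat, at 0.186 times the WT level (interval 0.0891 to 0.389; adjusted p = 0.00552). In both genes the groups were far apart, the WT libraries ranked alike, and the highest was the column numbered 4, the library with Adam7 reads. Without that column Col4a3 was still lower in KO fat, with a log2 fold change of -2.52, and Col4a4 with one of -2.0 (limma adjusted p = 0.00750 and 0.0142). The part of epididymis or sperm RNA in these differences was not tested. In GENCODE 5.65% of the exon bases of Col4a3 also lie in the annotated gene C430014B12Rik, and reads there may be shared between them.

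The X-linked pair Col4a5 and Col4a6, whose start sites lie 1343 bases apart on opposite strands, did not pass the test. Col4a5, the partner of Col4a3 and Col4a4 in the kidney network, averaged 1564 ± 306 reads in KO fat and 2204 ± 828 in WT fat (SD, n = 4 and 3; ratio 0.732, adjusted p = 0.202). Col4a6, known from smooth muscle and epithelial basement membranes, had 188, 163, 324 and 347 reads in KO fat and 221, 543 and 1165 in WT fat (ratio 0.467, adjusted p = 0.137). Its WT libraries differed by a factor of 5.27, again with the column numbered 4 on top.

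Outside these classes, Col15a1 (chr4:47208161-47313167) fell in KO fat. It encodes the core of a proteoglycan that links basement membranes to fibrils, and it had 25711, 31024, 34827 and 29166 reads in KO fat, against 59945, 52289 and 41043 in WT fat. The level was 0.594 times that of WT fat (interval 0.434 to 0.813; limma adjusted p = 0.0199), with no overlap, and the call was lost without KO replicate 4 (adjusted p = 0.0598) and without the WT column numbered 3 (adjusted p = 0.0810). Col18a1, its close relative and the source of endostatin, averaged 12029 ± 1864 reads in KO fat and 16791 ± 4028 in WT fat, a ratio of 0.724 with an adjusted p of 0.105.

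Col8a1 (chr16:57624258-57754737) rose in KO fat. It encodes a short-chain collagen known from vessel walls and from the membrane under the corneal endothelium, and it had 2288, 4485, 1839 and 3249 reads in KO fat and 1313, 1245 and 716 in WT fat. The rise was 2.65-fold (interval 1.58 to 4.45; adjusted p = 0.0118), and the lowest KO library was above the highest WT library. Its partner chain Col8a2 averaged 258 ± 63.8 reads in KO fat and 159 ± 106 in WT fat (ratio 1.81, adjusted p = 0.130). Col7a1, the anchoring fibril collagen of skin, averaged 60.0 ± 19.1 reads in KO fat and 28 ± 9.67 in WT fat, a ratio of 2.08 with an adjusted p of 0.0550.

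None of the 6 type VI chains passed the test in fat. Col6a1 had 40833, 47817, 54273 and 48394 reads in KO fat and 90869, 61626 and 33333 in WT fat, so that the WT libraries enclosed every KO library (ratio 0.833, interval 0.497 to 1.40, adjusted p = 0.560). Col6a2 behaved alike, with a mean of 46158 ± 9110.3 reads in KO fat and 60444 ± 32279.6 in WT fat (ratio 0.840, adjusted p = 0.641). Col6a3, whose protein releases the fragment endotrophin, averaged 33819 ± 9237 reads in KO fat and 31052 ± 15492 in WT fat (ratio 1.17, adjusted p = 0.700). For these 3 chains the direction turned when 1 WT library was left out, the column numbered 1 for Col6a1 and Col6a2 (0.07 and 0.14 on the log2 scale) and the column numbered 4 for Col6a3 (-0.25). Col6a4, Col6a5 and Col6a6, which can take the place of Col6a3 in the molecule, had ratios of 0.979, 1.58 and 0.714.

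The fibril-associated chains did not pass either. Col12a1 averaged 1571 ± 606 reads in KO fat and 2265 ± 1483 in WT fat (ratio 0.769), Col14a1 averaged 8013 ± 2742 in KO fat and 7023 ± 3652 in WT fat (ratio 1.23), and Col16a1 averaged 3224 ± 396 in KO fat and 2442 ± 1054 in WT fat (ratio 1.40). Their adjusted p-values were 0.610, 0.617 and 0.189. Col9a3 and Col20a1, also fibril-associated, had ratios of 1.85 and 1.76. The transmembrane chains Col23a1 and Col17a1 had 0.690 and 0.540, and Col28a1, of neither kind, had 0.819. None of these passed. Only 1 WT library reached 10 reads for Col9a3, so it entered the test through the KO group. Col23a1 had 560 reads in the WT column numbered 4, against 152 and 177 in the columns numbered 1 and 3. The 9 chains not tested in fat had at most 23 reads in any library. They were the fibrillar chains Col2a1 and Col11a1, the cartilage chains Col9a1, Col9a2 and Col10a1, and Col13a1, Col19a1, Col22a1 and Col25a1.

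A ratio of 2 chains in 1 library does not depend on how that library was scaled, so 12 pairs were compared within fat libraries by exact two-sided permutation over 35 relabellings. In 4 pairs the groups did not overlap, and no pair passed after adjustment over the 12. Col5a1 per Col5a2 was 0.562, 0.857, 0.978 and 0.869 in KO fat and 1.33, 1.36 and 1.38 in WT fat (exact permutation p = 0.0286, the smallest that 35 relabellings allow; adjusted 0.171). Col15a1 per Col18a1 was 2.60, 2.35, 2.50 and 2.62 in KO fat and 2.89, 3.10 and 3.23 in WT fat, with the same p. The WT libraries, which differed widely in level for most chains, thus agreed closely in these ratios. Col4a1 per Col1a1, a ratio of basement membrane to fibrillar collagen, was 1.14 to 2.96 in KO fat and 4.43 to 5.77 in WT fat (exact permutation p = 0.0571, adjusted 0.171). Col5a1 per Col1a1 was 0.304 to 0.619 in KO fat and 0.906 to 1.06 in WT fat, with the same p-values. Col1a1 per Col1a2 was 0.489 to 0.695 in KO fat and 0.457 to 0.623 in WT fat, and Col6a1 per Col6a2 was 0.952 to 1.16 in KO fat and 0.976 to 1.17 in WT fat. In these last pairs, which encode chains of 1 protein, the groups covered nearly the same range.

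**Figure D5:**
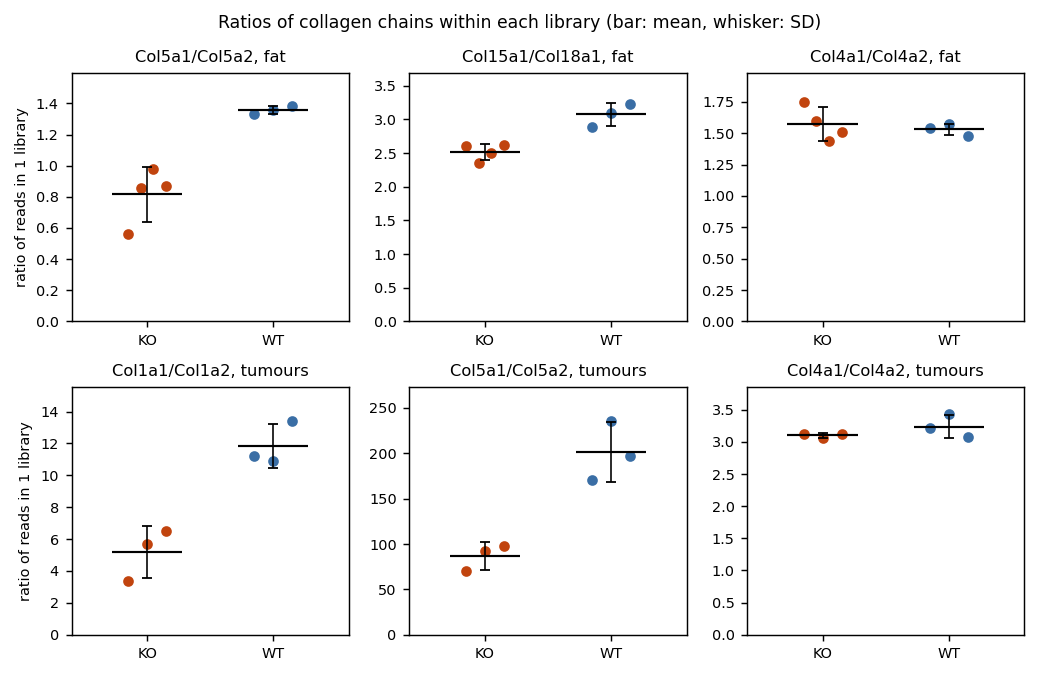
Ratio of reads of 2 chains within each library, KO left of WT, in visceral fat (top row, n = 4 and 3) and E0771 tumours (bottom row, n = 3 each), with the mean as a bar and the SD as a whisker. KO points lie below all WT points for Col5a1/Col5a2 in both tissues, for Col15a1/Col18a1 in fat and for Col1a1/Col1a2 in tumours, and the groups overlap for Col4a1/Col4a2.

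Genes that make, process, degrade and bind collagen were counted from lists of other genes of the pathway. Their counts stand against 16.8% of all genes called higher and 17.4% called lower in KO fat. Of 17 tested genes of collagen breakdown and uptake, 11 rose and 2 fell in KO fat (median log2 fold change 1.45). These counts include inhibitors of the metalloproteases. Among the inhibitors Timp1 rose 7.59-fold and Timp2 1.65-fold, and Timp3 fell to 0.450 times the WT level (limma adjusted p = 0.00733, 0.00807 and 0.0127). The cathepsin Ctsk, which cleaves the triple helix, rose 7.83-fold (limma adjusted p = 0.000982), and the metalloproteases Mmp2 and Mmp14 rose 3.77-fold and 2.55-fold (adjusted p = 0.00141 and 0.00212). Another metalloprotease, Mmp9, fell to 0.382 times the WT level (limma adjusted p = 0.00601). Of 18 tested genes of chain modification and folding, 4 rose and 2 fell (median 0.23), which is near the shares of all genes, led by the prolyl hydroxylase family gene Leprel2 (1.70-fold, adjusted p = 0.00261), the collagen galactosyltransferase Glt25d1 (1.98-fold, adjusted p = 0.00638) and the chaperone Fkbp10 (1.55-fold, adjusted p = 0.0116). Of 14 tested genes of procollagen processing and crosslinking, 4 rose and 4 fell (median 0.06). Pxdn, the peroxidase that crosslinks type IV collagen, fell to 0.309 times the WT level (adjusted p = 0.00155), while Pcolce, an enhancer of procollagen processing, rose 2.31-fold (adjusted p = 0.00207) and the lysyl oxidase Loxl3 rose 1.62-fold (adjusted p = 0.00418).

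Of 14 tested laminin and partner genes, 7 fell and none rose (median log2 fold change -0.84), against 17.4% of all genes lower and 16.8% higher in KO fat, among them Nid2 at 0.334 times, Agrn at 0.580 times and Lama4 at 0.599 times the WT level (adjusted p = 0.00189, 0.00536 and 0.0120). Of 17 small proteoglycans and fibril partners, 5 rose and 1 fell (median 0.01). Lum, a regulator of fibril spacing, rose 3.10-fold (adjusted p = 0.00434), Bgn rose 1.82-fold (adjusted p = 0.0179) and Prelp fell to 0.401 times the WT level (adjusted p = 0.0116). Of 12 collagen receptors tested, 4 rose and 2 fell (median 0.12), with the inhibitory leukocyte receptor Lair1 up 7.18-fold (adjusted p = 0.00224), Antxr1 up 1.59-fold (adjusted p = 0.00342) and the receptor kinase Ddr1 at 0.360 times the WT level (adjusted p = 0.00797). Of 13 genes of TGF-beta signalling, which drives collagen transcription in fibroblasts, 3 rose and none fell (median 0.10), against 16.8% and 17.4% of all genes, among them Tgfbr1 2.81-fold and Tgfb1 2.56-fold (adjusted p = 0.00145 and 0.00773).

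Markers of cell types that fat can hold were counted in the same fits, where 16.8% of all genes were called higher and 17.4% lower in KO fat. Of 10 fibroblast markers 2 rose (Pdgfra and Lum) and none fell (median log2 fold change 0.18), and their summed level was 178751 to 202115 normalised reads in KO fat and 139602 to 162962 in WT fat. All 8 adipocyte markers fell (median -1.90), with sums of 270505 to 440955 in KO fat and 891316 to 984099 in WT fat, and all 8 endothelial markers fell (median -0.96), with sums of 21911 to 36036 in KO fat and 51648 to 66569 in WT fat. Of 8 mural cell markers 5 fell (median -1.18), with sums of 15148 to 26151 in KO fat and 53431 to 61538 in WT fat, and of 8 mesothelial markers 6 fell (median -0.93). Of 8 macrophage markers 7 rose (median 2.14), with sums of 221831 to 325588 in KO fat and 43787 to 124947 in WT fat. No marker of these 6 lists was at 0 in every fat library. The fibroblast and macrophage sums had all KO libraries above all WT libraries, and the adipocyte, endothelial and mural sums had all KO libraries below, as 43.7% of all genes were apart in either direction. Lum, Dcn and Fbn1 stand in the list of fibril partners as well, Mrc1 in that of breakdown and uptake and Cspg4 in that of receptors. Each of these genes is counted in both of its lists. The part of these cells in the collagen differences was not tested.

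In the tumours 27 of the 43 chains passed the filter and none passed edgeR's quasi-likelihood test after adjustment. Of all 13109 genes tested by edgeR 0 were called, although 497 stood higher and 408 lower before adjustment. DESeq2, run on 16958 genes, called 47 higher and 12 lower (0.348%). With p under 0.05 before adjustment, 4 chains were higher in KO hosts and none was lower, beside 3.79% of all genes higher and 3.11% lower (6.90% together) by the same rule. The median log2 fold change was 0.08 over the 27 chains and -0.14, -0.12 and 0.21 over the fibrillar, type IV and other chains, beside 0.00 over all genes. KO and WT libraries did not overlap for 5 chains (4 above, 1 below), while 10.6% of all genes were apart in this way (5.68% above and 4.93% below). DESeq2 called 2 chains higher in KO hosts at an adjusted p of 0.05, Col1a2 and Col5a2.

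Those 2 fibrillar chains were low in the tumours. Col1a2 (chr6:4504814-4541544) had 1575, 905 and 1061 normalised reads in KO hosts and 444, 358 and 797 in WT hosts. Its level was 2.22 times that of WT hosts (interval 1.44 to 3.41; edgeR adjusted p = 0.446; DESeq2 adjusted p = 0.00889), and the groups did not overlap. Without WT replicate 3, its highest WT library, the edgeR adjusted p was 0.0484. Col5a2 (chr1:45374321-45503282) had 271, 173 and 209 reads in KO hosts and 112, 77.3 and 121 in WT hosts, 2.11 times the WT level (interval 1.42 to 3.11; edgeR adjusted p = 0.446; DESeq2 adjusted p = 0.0436). Col12a1 had 471, 194 and 299.7 reads in KO hosts and 117, 64.0 and 239 in WT hosts, where the groups overlapped (ratio 2.30, edgeR adjusted p = 0.652). Col8a1 had 31.2, 40.8 and 40.4 reads in KO hosts and 22.7, 10.5 and 16.7 in WT hosts, near the lower end of what was tested (ratio 2.24, edgeR adjusted p = 0.676). KO replicate 1 was the highest library for Col1a2, Col5a2 and Col12a1.

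The chains Col1a1, Col3a1, Col5a1, Col5a3, Col4a1, Col4a2, Col6a1, Col6a2, Col6a3 and Col18a1, all with means of at least 5783 reads in both groups of tumours, had ratios of KO to WT hosts between 0.828 and 1.08. Col1a1, the partner of Col1a2, had 5275, 5158 and 6916 reads in KO hosts and 4964, 3919 and 10689.8 in WT hosts (ratio 0.886, interval 0.566 to 1.39). That direction turned to 0.38 on the log2 scale without WT replicate 3. The ratio was 0.876 (interval 0.702 to 1.09) for Col3a1, 0.906 (0.741 to 1.11) for Col5a1 and 1.08 (0.927 to 1.27) for Col5a3. Col4a1 averaged 38822 ± 6466 reads in KO hosts and 42918 ± 3819 in WT hosts (SD, n = 3 each; ratio 0.905, interval 0.740 to 1.11), and Col4a2 had a ratio of 0.939. The type VI chains Col6a1, Col6a2 and Col6a3 had ratios of 0.882, 0.910 and 0.991, and Col18a1 had 0.828. Col15a1, abundant in fat, averaged 77.8 ± 39.4 reads in KO hosts and 74.0 ± 16.5 in WT hosts (ratio 1.06), and its direction turned without KO replicate 1 or WT replicate 1.

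Of the other named tumour chains, Col8a2 averaged 13.8 ± 1.42 reads in KO hosts and 5.75 ± 1.03 in WT hosts (SD, n = 3 each; ratio 2.39, edgeR adjusted p = 0.727), and it was tested through the KO libraries alone, since no WT library reached 10 reads. Col17a1 averaged 99.7 ± 38.6 reads in KO hosts and 56.0 ± 27.8 in WT hosts (ratio 1.79, edgeR adjusted p = 0.757). Col16a1, an abundant fibril-associated chain here, averaged 8737 ± 1276 reads in KO hosts and 10268 ± 209 in WT hosts, with every KO library below every WT library (ratio 0.851, edgeR adjusted p = 0.757). Col7a1, with a mean of 3006 ± 132 reads in KO hosts and 2609.9 ± 324 in WT hosts, had a ratio of 1.15, and the cartilage chain Col2a1 had one of 0.856. Of the 16 chains not tested, which had at most 28 reads in any library, Col4a3, Col6a6, Col25a1 and Col28a1 were at 0 in all 6 libraries. Col4a4 had 2, 1 and 0 reads in KO hosts and 5, 2 and 28 in WT hosts. It did not pass the filter; DESeq2 and edgeR without the filter each had it as the 1 chain lower in KO hosts with p under 0.05 before adjustment, with most of its reads in WT replicate 3.

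Chain ratios in the tumours set these differences against each other within a library. Col1a1 per Col1a2 was 3.35, 5.70 and 6.52 in KO hosts and 11.2, 10.9 and 13.4 in WT hosts. Col5a1 per Col5a2 was 69.8, 92.8 and 98.0 in KO hosts and 171, 236 and 197 in WT hosts. These were the 2 of 11 pairs without overlap, each with an exact permutation p of 0.1, the smallest that 20 relabellings allow (adjusted 0.550). Reads of both pairs were far more unequal than in fat, where Col1a1 per Col1a2 lay below 1 in every library. Col4a1 per Col4a2 was 3.06 to 3.13 in KO hosts, against 3.07 to 3.43 in WT hosts.

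Of the other genes of the pathway none passed in the tumours. Among 14 fibril partners tested, 4 stood above and 1 below in KO hosts with p under 0.05 before adjustment, led by Postn, a matricellular protein of fibroblasts, at 1.88 times the WT level (edgeR adjusted p = 0.204), and Lum at 2.61 times (edgeR adjusted p = 0.523). Of 17 genes of breakdown and uptake, inhibitors included, none reached an unadjusted p of 0.05 in either direction. Summed fibroblast markers stood at 25631 to 27758 normalised reads in KO hosts, against 24526 to 26499 in WT hosts, and most of that sum was Ly6a, with a mean of 17011 reads in KO hosts. Of the 10 markers Lum, Thy1 and Fbn1 were higher with p under 0.05 before adjustment, 5 had a log2 fold change above 0 and the median was 0.06; Dpt, Pi16 and Cd34 had ratios of 0.740, 0.701 and 0.604. Summed markers of mural cells and smooth muscle stood at 4063 to 6178 in KO hosts, against 3729 to 4082 in WT hosts, most of it Acta2 (3431 to 5468 in KO hosts, against 3155 to 3272 in WT hosts). Of 7 tested mural markers Acta2 and Tagln were higher and Rgs5 was lower before adjustment (ratios 1.32, 2.40 and 0.325), with a median log2 fold change of 0.02. Skeletal muscle markers summed to 112 to 218 in KO hosts, against 226 to 572 in WT hosts, and 2 of the 5 tested (Acta1 and Tnnt3) were lower before adjustment. Schwann cell markers summed to 1006 in WT replicate 3, against 102 to 477 in the other tumours, and that library was the highest WT library for 18 of the 27 chains. KO replicate 1, highest for Col1a2 and Col5a2, was also highest in the fibroblast and mural sums. Its fibroblast sum of 27758 was close to the 27624 of KO replicate 2, the lowest KO library for Col1a2 and Col5a2. The part of these cells in the tumour differences was not tested.

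The effect of the host genotype was set between tissues for the 25 chains tested in both, by exact permutation of the host labels within each tissue over 700 relabellings. Such relabelling takes the label to have no effect in either tissue. These p-values therefore do not test whether effects present in both tissues differ in size. No difference passed after adjustment, and 6 had an unadjusted p under 0.05. The smallest p was that of Col5a3, with KO minus WT of -0.92 on the log2 scale in fat and 0.11 in tumours (exact permutation p = 0.00571, adjusted 0.107). Col11a2 followed, with 1.53 in fat and -0.22 in tumours (exact permutation p = 0.00857, adjusted 0.107). Col27a1 had 1.47 in fat and 0.10 in tumours, and Col3a1 0.88 and -0.18 (exact permutation p = 0.0300 and 0.0271, both adjusted 0.15). The 6 also held Col17a1 and Col16a1, with -0.89 and 0.48 in fat and 0.90 and -0.24 in tumours. Col17a1 was low in fat, with 7.05 to 18.8 normalised reads in KO libraries and 14.7 to 24.7 in WT libraries. Only 2 of its KO libraries reached 10 reads, so it met the filter through the WT group. Col1a2 had 0.84 in fat and 1.19 in tumours, Col5a2 0.50 and 1.07, and Col8a1 1.41 and 1.18. The exact permutation p-values of their differences were 0.660, 0.400 and 0.821, which do not show the effects to be equal.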

How the data were processed

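Stranded mRNA libraries were made from Trizol RNA, per the labels' protocols. The authors' counts per gene were deposited for the tumours, and for fat the deposited values were a signal per gene, reads divided by a size factor. CASAVA, TopHat, DESeq2 and mm10 are named in the submitters' processing notes; the counting tool, its strand setting and its gene annotation are not given in the sources used here. In fat all 117220 values above 0 were whole multiples of 1 read (within 0.001 reads). Of the tumour entries 66.7% to 72.2% stood in the 5 summary rows that name no gene, which were left out. This share was 66.7%, 67.0% and 68.6% in KO hosts and 70.8%, 72.2% and 69.2% in WT hosts, without overlap. Its part in the tumour differences was not tested.

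Fat values were tested as log2(value + 1) with limma 3.58.1 (intensity trend), for genes at 10 or more in at least 3 libraries, so fold changes of low genes are understated. Tumour counts were tested with edgeR 4.0.16 (quasi-likelihood test, TMM, filterByExpr), and normalised tumour reads are counts rescaled by the TMM library size. DESeq2 1.42.0 was an alternative, all in R 4.3.3. P-values were two-sided and adjusted over all genes by the Benjamini-Hochberg method at 0.05. Both fits were tested on simulated data. Differences are KO minus WT.

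The deposited WT fat columns are numbered 1, 3 and 4 and the labelled replicates 1 to 3, so these columns were tied to the group alone. The members and lists were chosen with earlier results of these data known. Named in fat were Col1a1, Col1a2, Col3a1, Col4a1, Col4a2, Col5a1, Col5a2, Col6a1, Col6a2, Col6a3, Col15a1, Col18a1 and every other chain that passed; in tumours the same chains and the 8 others of smallest p; and from each pathway list up to 3 that passed with the smallest p. Other chains, and the inhibitors and Mmp9 in the breakdown list, are given for completeness, after their values were seen. Promoter windows came from RefSeq, where 35 of the 43 chains had one.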

Additional observations from a re-analysis of the deposited data

Results flagged for a closer look

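Among 54 groups of 4 KO fat values looked at, 1 library stood apart from the other 3 of its group by Dixon's criterion. Col16a1, a fibril-associated chain, had 2635 normalised reads in KO fat replicate 1, while the other KO libraries lay between 3356 and 3479. Chance alone sets about 1 in 20 such groups apart. The WT fat libraries, at 3570.1, 2274 and 1483, ranged on both sides of that value.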

How the results depend on the processing

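Of 677 single values recomputed under the alternatives, 648 kept their direction and their side of the threshold, 14 came to pass the test, 3 ceased to pass it and 12 changed direction. In fat Col27a1, Col11a2, Col8a1, Col4a3, Col4a4 and Col5a3 passed under all 15 alternatives. The number of chains called higher in KO fat was 8 by DESeq2 on recovered reads, 7 after quantile normalisation, and 3 to 9 when 1 library was left out; the number called lower was 3 to 5 when 1 library was left out. In the tumours DESeq2 called 2 chains higher, and leaving out 1 library gave 0 to 1. The number lower in KO hosts at an unadjusted p under 0.05 was 1 by DESeq2, 1 without the filter on low counts, and 0 to 1 when 1 library was left out. Directions turned for chains that had not passed: in fat Col6a1 to 0.07 and Col6a2 to 0.14 (log2) without the WT column numbered 1 and Col6a3 to -0.25 without the one numbered 4; in tumours Col15a1 to -0.33 without KO replicate 1 and -0.02 without WT replicate 1, Col4a2 to 0.03 and Col6a3 to 0.08 without KO replicate 2, and Col1a1 to 0.38, Col4a2 to 0.03 and Col6a3 to 0.35 without WT replicate 3. Over all leave-outs these chains ranged from -0.65 to 0.07, -0.71 to 0.14 and -0.25 to 0.57 in fat (Col6a1, Col6a2, Col6a3), and in tumours from -0.44 to 0.38 (Col1a1), -0.19 to 0.03 (Col4a2), -0.24 to 0.35 (Col6a3) and -0.33 to 0.41 (Col15a1). The causes were not tested. No paired analysis was possible in fat because the WT columns carry no replicate number of the labels. In the tumours same-numbered libraries did not deviate together (correlations -0.229, 0.012 and -0.22); a fit with the replicate number as a block called 0 genes and turned Col6a3 to 0.05 and Col15a1 to -0.03.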
